A study of Homo sapiens with 4 samples.

Results

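The Notch pathway genes described here are 3 receptors (NOTCH1, NOTCH2, NOTCH3), 3 ligands (JAG1, JAG2, DLL1), the receptor-modifying enzyme gene LFNG and the target repressors HES1 and HEY1. They were found by symbol among the rows with an Ensembl gene identifier, which gave 9 symbols on 10 of 53777 rows, because JAG1 stood on a protein-coding row and on a second row annotated as a processed transcript. Their levels were read by RNA sequencing in NUGC3 cells, a line from a human gastric cancer. The NIPBL knockdown group held 2 libraries, 1 from cells transfected with hairpin 1 (NIPBL knockdown 1) and 1 with hairpin 7 (NIPBL knockdown 2) against NIPBL, the gene of the protein that loads cohesin onto chromosomes. The scramble group held 2 libraries from cells transfected with a control hairpin. All 4 labels carry the letters DOX, which they do not explain, and scramble 2 bears the label of scramble 1 with a suffix that may mark a repeat. The comparison shows how Notch transcripts differ once NIPBL is lowered. Nothing in the labels says that the libraries came from separate cultures, so a p-value here speaks for the scatter among 4 libraries only, and that scatter may be technical.

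Notch receptors sit in the cell membrane and are switched on by ligands on a neighbouring cell. Ligand pulling opens the receptor to the ADAM proteases and then to gamma-secretase, which frees the intracellular part. That part enters the nucleus and binds the DNA-binding protein RBPJ to turn on genes, of which the HES and HEY repressors are the best known. In the stomach the pathway is known for keeping epithelial stem and progenitor cells dividing.

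Levels are the authors' FPKM, reads per unit of transcript length, corrected for library size, so they can be set side by side between genes. Summed FPKM was 749446 with hairpin 1, 682076 with hairpin 7, 739335 in scramble 1 and 730732 in scramble 2. Read depth is unknown, and no counting error can be given. NIPBL itself was at 7.27 FPKM with hairpin 1 and 9.17 FPKM with hairpin 7, against 23.92 and 23.11 FPKM in the scramble libraries. Of 10 epithelial marker genes, 10 averaged at least 1 FPKM, and their sum was 4486 and 5383 FPKM in knockdown and 5343 and 5395 FPKM in scramble libraries. Of 10 leukocyte and 9 endothelial markers 0 averaged 1 FPKM, and of 10 fibroblast markers only COL1A1 did.

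Among the 9 genes, the ligand gene JAG2 fell in the knockdown libraries to 30.4% of its scramble level and was the only member to pass the test. HES1 stood at 252% of its scramble mean, with the hairpins far apart, and did not pass. The main receptors NOTCH2 and NOTCH1 had nearly the same level in all 4 libraries. Changes were tested as log2(FPKM + 1), knockdown minus scramble, with limma, a linear model that shares the spread over all genes. That scale understates the change of genes at low levels. Genes averaging 1 FPKM or more entered, and p-values were adjusted over all 12834 of them by Benjamini and Hochberg with a threshold of 0.05. Of the 10 rows 8 entered, HEY1 and the second JAG1 row being too low, and 1 of the 8 passed, where 2.56% of all genes tested passed (1.45% higher and 1.11% lower). At an unadjusted p under 0.05 there were 2 of the 8, JAG2 and HES1, against 26.4% of all genes. In 5 of the 8 (62.5%) the groups did not overlap, close to the 60.3% of all genes tested. Of these 3 were higher and 2 lower with knockdown, where the shares of all genes were 29.5% higher and 30.8% lower. LFNG, among the 3, entered the test only through its knockdown libraries, so its place in these counts gives no support. Over all genes tested the median log2 change was -0.013, the median difference of hairpin 1 from scramble 0.0071 and that of hairpin 7 -0.026.

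**Figure D1:**
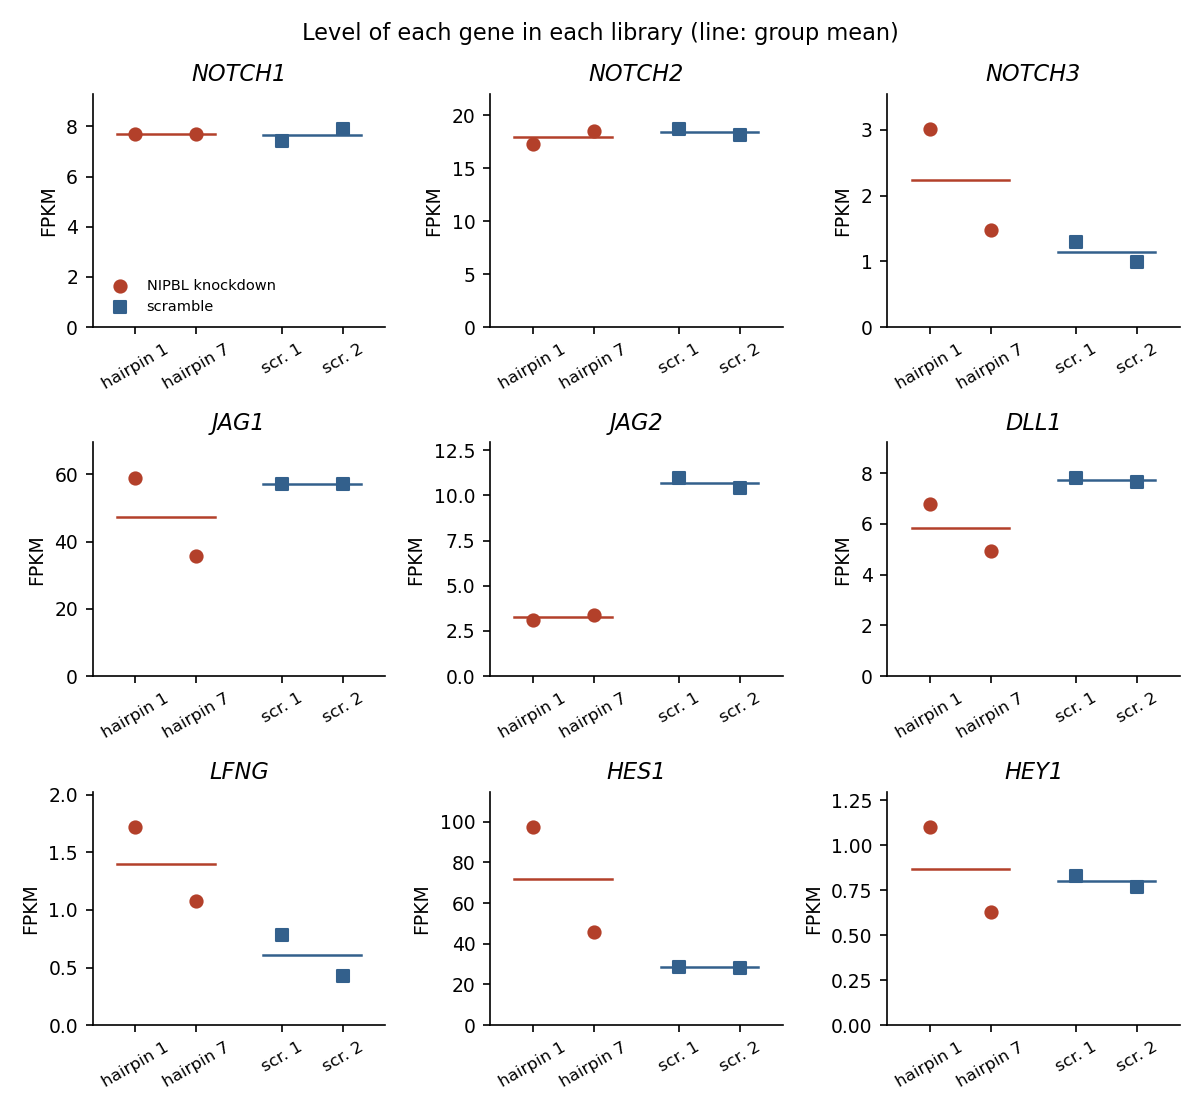
Level in FPKM (y axis, from 0, a scale of its own in each panel) of the 9 genes in the 4 libraries (x axis; scr. is scramble). Circles are knockdown, squares scramble and lines group means. JAG2 is low with both hairpins, HES1 is high with both and highest with hairpin 1, at 97.37 FPKM, and the NOTCH1 and NOTCH2 panels are flat.

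NOTCH2 was the most abundant of the receptor genes, followed by NOTCH1 and, far lower, NOTCH3. NOTCH2 (ENSG00000134250) was at 17.29 FPKM with hairpin 1 and 18.53 FPKM with hairpin 7, against 18.69 and 18.14 FPKM in the scramble libraries. NOTCH1 (ENSG00000148400) was at 7.71 and 7.69 FPKM in the knockdown libraries, against 7.43 and 7.89 FPKM in the scramble libraries. For both genes the groups overlapped. The log2 change was -0.039 ± 0.10 for NOTCH2 (SE, limma, adjusted p = 0.834) with a 95% interval of the difference from -0.30 to 0.22. For NOTCH1 it was 0.0072 ± 0.11 (SE, limma, adjusted p = 0.974) with an interval from -0.28 to 0.30. The sign of either change is not settled, since NOTCH1 was at -0.036 under quantile normalization and NOTCH2 at 0.0087 with NIPBL knockdown 1 left out. The NOTCH2 value is also uncertain because NOTCH2NL, a near copy of the start of NOTCH2, can share its reads. NOTCH2NL was listed at 43.51 and 35.78 FPKM in knockdown and 42.76 and 43.64 FPKM in scramble libraries.

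NOTCH3 (ENSG00000074181), a receptor known best from vascular smooth muscle, was at 3.01 FPKM with hairpin 1 and 1.47 FPKM with hairpin 7, against 1.30 and 0.99 FPKM in scramble libraries. Both knockdown values lay above both scramble values, that of hairpin 7 only slightly. Its log2 change was 0.56 ± 0.29 (SE, limma, adjusted p = 0.295). It was 0.91 without NIPBL knockdown 2 (limma, adjusted p = 0.0475) and 0.21 without NIPBL knockdown 1 (adjusted p = 0.407). In a fit with a single hairpin library, here and for the genes that follow, the scramble libraries alone give the spread. Such fits called many genes, 2915 of 12834 without NIPBL knockdown 2 and 4532 without NIPBL knockdown 1, so a pass in them sets a gene little apart. NOTCH4, the remaining receptor gene, was listed at 0.41 and 0.35 FPKM in knockdown and 0.25 and 0.21 FPKM in scramble libraries and did not enter the test.

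Summed over NOTCH1 to NOTCH3, receptor FPKM was 28.01 and 27.69 in the knockdown libraries, against 27.42 and 27.02 in the scramble libraries. The sum averaged 27.9 ± 0.226 FPKM in knockdown and 27.2 ± 0.283 FPKM in scramble libraries (SD, n = 2 each, exact permutation test, two-sided, p = 0.3333), and 0.3333 is the smallest p that 2 libraries against 2 allow. The receptor total was thus 102% of scramble. NOTCH2 made up 61.7% of it with hairpin 1 and 66.9% with hairpin 7, against 68.2% and 67.1% in the scramble libraries. NOTCH3 made up 10.7% and 5.31% in knockdown, against 4.74% and 3.66% in scramble libraries.

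JAG1, a ligand of the Jagged class, was the most abundant ligand gene in every library. JAG1 (ENSG00000101384) was at 58.85 FPKM with hairpin 1 and 35.79 FPKM with hairpin 7, against 57.20 and 57.01 FPKM in the scramble libraries. Hairpin 7 alone lay below the scramble libraries, at 62.7% of their mean. Hairpin 1 lay just above them, at 103%. The log2 change over both was -0.31 ± 0.24 (SE, limma, adjusted p = 0.455). In the fits with a single hairpin library it was -0.66 without NIPBL knockdown 1 (limma, adjusted p = 0.0102) and 0.043 without NIPBL knockdown 2 (adjusted p = 0.47). The second JAG1 row, the processed transcript ENSG00000270408, was listed at 1.21 FPKM with hairpin 1 and 0 with hairpin 7, against 0.52 and 0.67 FPKM in scramble libraries. With a mean of 0.6 FPKM this second row did not enter the test. Its values lay above scramble with hairpin 1 and below it with hairpin 7. The strand setting of the libraries is not given in the sources used here, so transcripts of overlapping genes cannot be told apart.

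JAG2 (ENSG00000184916), the second Jagged ligand, was at 3.12 FPKM with hairpin 1 and 3.38 FPKM with hairpin 7, against 10.96 and 10.43 FPKM in scramble 1 and scramble 2. The hairpin values lay close together and far below both scramble values. The mean was 3.25 ± 0.184 FPKM in knockdown and 10.7 ± 0.375 FPKM in scramble libraries (SD, n = 2 each). JAG2 fell by 1.46 ± 0.12 on the log2(FPKM + 1) scale (SE, limma, adjusted p = 0.018), with a 95% interval from -1.78 to -1.14. It had the 88th lowest difference from scramble with hairpin 1 and the 130th lowest with hairpin 7 among the 12834 genes tested. The call was lost without scramble 1 (log2 change -1.43), without scramble 2 (-1.49) and with the scramble libraries averaged into 1 (-1.46). It was also lost with no filter on low values (limma, adjusted p = 0.111). NIPBL and almost every other gene called in the main fit lost the call in those settings too, so the loss is not particular to JAG2. Over all 14 alternatives the adjusted p lay between 0.0102 and 0.267, and the log2 change stayed negative, between -1.69 and -0.93. In a culture measured in bulk, fewer cells that express a gene and less RNA per cell cannot be told apart.

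The 300 bases around the start of JAG2 (250 before and 50 after, RefSeq, GRCh38.p14, chr14:105168727-105169026, minus strand) are shown because JAG2 is the member that passed. They read 5′ to 3′, and capitals, here and in the HES1 promoter shown further on, mark the RBPJ core letters TTCCCA on either strand (TGGGAA in reverse).
JAG2: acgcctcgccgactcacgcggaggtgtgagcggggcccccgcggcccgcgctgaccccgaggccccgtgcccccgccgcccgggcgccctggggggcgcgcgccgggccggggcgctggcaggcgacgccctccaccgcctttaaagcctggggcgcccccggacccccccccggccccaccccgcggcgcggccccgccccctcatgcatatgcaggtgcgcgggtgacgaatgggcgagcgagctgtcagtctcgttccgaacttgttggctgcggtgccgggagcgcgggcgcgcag
The window held 0 matches to the RBPJ core and was 79.7% G or C, against a median of 58.7% over the 35116 RefSeq windows. It held 1 match to CACGCG, a site that HES repressors can bind, as did 11.4% of all windows at least once. The window of JAG1, which did not pass, also held 1 match.

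DLL1 (ENSG00000198719), a ligand of the Delta class, was at 6.78 FPKM with hairpin 1 and 4.94 FPKM with hairpin 7, against 7.81 and 7.64 FPKM in scramble libraries. The groups did not overlap, and hairpin 1 lay closer to scramble than hairpin 7. Its log2 change was -0.36 ± 0.17 (SE, limma, adjusted p = 0.252). It was -0.55 without NIPBL knockdown 1 (limma, adjusted p = 0.0276) and -0.17 without NIPBL knockdown 2 (adjusted p = 0.228). DLL3, another Delta gene, was at 1.56 and 1.31 FPKM in knockdown, against 3.08 and 2.42 FPKM in scramble libraries (log2 change -0.62 ± 0.19, SE, limma, adjusted p = 0.136). DLL4, which did not enter the test, was listed at 0.08 and 0 FPKM in knockdown and 0.79 and 0.84 FPKM in scramble libraries. Thus 4 of 5 ligand genes (JAG2, DLL1, DLL3, DLL4, and not JAG1) had both hairpins below both scramble libraries. Of all genes tested, which do not include DLL4, 30.8% did so. Only JAG2 among the ligand genes passed the test. The grouping of the 5 ligand genes was made after the values were seen.

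Summed over JAG1, JAG2 and DLL1, ligand FPKM was 68.75 with hairpin 1 and 44.11 with hairpin 7, against 75.97 and 75.08 in the scramble libraries. The sum averaged 56.4 ± 17.4 FPKM in knockdown and 75.5 ± 0.629 FPKM in scramble libraries (SD, n = 2 each, exact permutation test, two-sided, p = 0.3333, the smallest possible). The hairpins differed from each other by more than hairpin 1 differed from scramble. Ligand FPKM was 2.45 and 1.59 times receptor FPKM in the knockdown libraries, against 2.77 and 2.78 times in the scramble libraries. JAG2 made up 4.54% of the ligand sum with hairpin 1 and 7.66% with hairpin 7, against 14.4% and 13.9% in scramble libraries. The share of DLL1 was 9.86% and 11.2% in knockdown, against 10.3% and 10.2% in scramble libraries.

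**Figure D2:**
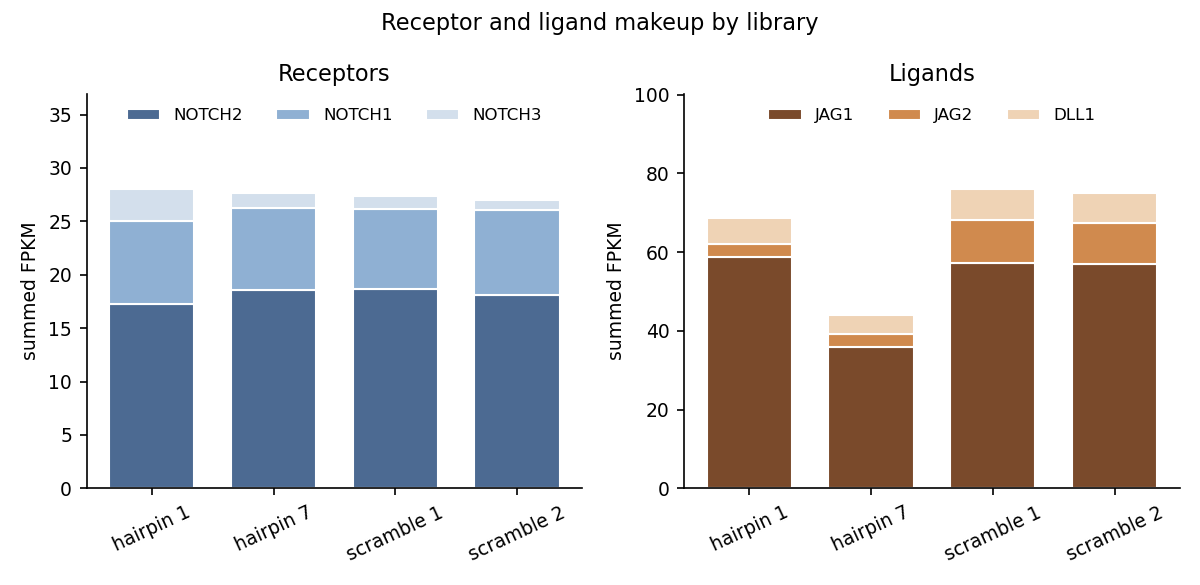
Stacked FPKM (y axis, from 0) of the receptor genes (left) and the ligand genes (right) in each library (x axis). The receptor columns are alike, between 27.02 and 28.01 FPKM, while the ligand column of hairpin 7 is the shortest, at 44.11 FPKM, and the JAG2 segment is thinner with both hairpins.

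LFNG (ENSG00000106003) encodes Lunatic fringe, which adds a sugar to fucose on the receptors and so shifts their response from Jagged toward Delta ligands. It was at 1.72 FPKM with hairpin 1 and 1.08 FPKM with hairpin 7, against 0.78 and 0.43 FPKM in scramble libraries. Both hairpin values lay above both scramble values, at a level near the limit of 1 FPKM for testing. The log2 change was 0.58 ± 0.26 (SE, limma, adjusted p = 0.239), with a 95% interval from -0.10 to 1.25. LFNG entered the test with a mean of 1.0025 FPKM only through its knockdown libraries, so its place among the genes tested gives no support. RFNG, which encodes another fringe enzyme, was at 7.99 and 7.50 FPKM in knockdown and 8.35 and 9.25 FPKM in scramble libraries (log2 change -0.16 ± 0.12, SE, limma, adjusted p = 0.424), and MFNG, the remaining fringe gene, was under 1 FPKM in every library.

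HES1 (ENSG00000114315) encodes a repressor that the freed part of Notch switches on directly through RBPJ, and that also represses its own gene. HES1 was at 97.37 FPKM with hairpin 1 and 45.89 FPKM with hairpin 7, against 28.44 and 28.31 FPKM in scramble libraries. Both hairpins lay above both scramble libraries, and the hairpins lay far apart. Hairpin 1 reached 343% of the mean of the scramble libraries and hairpin 7 162%. On the log2(FPKM + 1) scale the differences from scramble were 1.74 and 0.67, the 98th and the 1015th highest among the 12834 genes tested. The fitted log2 change was 1.21 ± 0.35 (SE, limma, adjusted p = 0.125). Its 95% interval, which is not adjusted for the number of genes, ran from 0.29 to 2.12. With a single hairpin kept, the adjusted p was 0.0108 for hairpin 7 and 0.00982 for hairpin 1 (limma), with the scramble libraries alone giving the spread. Whether the hairpins truly differ was not tested, since each is 1 library.

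The HES1 promoter window (RefSeq, GRCh38.p14, chr3:194135898-194136197, plus strand) is shown because it carries a known pair of RBPJ sites through which Notch acts.
HES1: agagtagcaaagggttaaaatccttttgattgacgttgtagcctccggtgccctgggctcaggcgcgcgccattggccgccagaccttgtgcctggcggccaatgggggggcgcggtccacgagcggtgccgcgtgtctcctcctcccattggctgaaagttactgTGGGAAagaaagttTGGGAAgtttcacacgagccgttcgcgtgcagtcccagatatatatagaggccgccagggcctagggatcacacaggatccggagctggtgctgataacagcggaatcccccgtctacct
The RBPJ core matched at bases -84 to -79 and -70 to -65 from the start site, both as TGGGAA on the printed strand. Of all windows 24% held the core at least once and 3.8% at least 2 times. Of the 7 members with a window in the table, only HES1 and LFNG held the core, LFNG once in each of its 2 windows. The extended form CGTGGGAA was in 0 of the 8 member windows and in 0.826% of all windows. HES1 also held 2 matches to CACGCG and 4 to the N-box CACNAG, the letters HES repressors bind. Of all windows 11.4% and 38% held them at least once, and 2.04% and 8.94% at least 2 times. CACGCG was also in the windows of JAG1 and JAG2, and the N-box in windows of NOTCH1, NOTCH2, NOTCH3 and LFNG. The E-box CACGTG was in none of the member windows and in 7.26% of all. Both strands were searched throughout, and a match is a description of letters and not a measured site. DLL1 and HEY1 are named only.

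HEY1 (ENSG00000164683), the other target repressor, was at 1.10 FPKM with hairpin 1 and 0.63 FPKM with hairpin 7, against 0.83 and 0.77 FPKM in scramble libraries. The hairpins lay on opposite sides of scramble. With a mean of 0.8325 FPKM it did not enter the test.

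**Figure D3:**
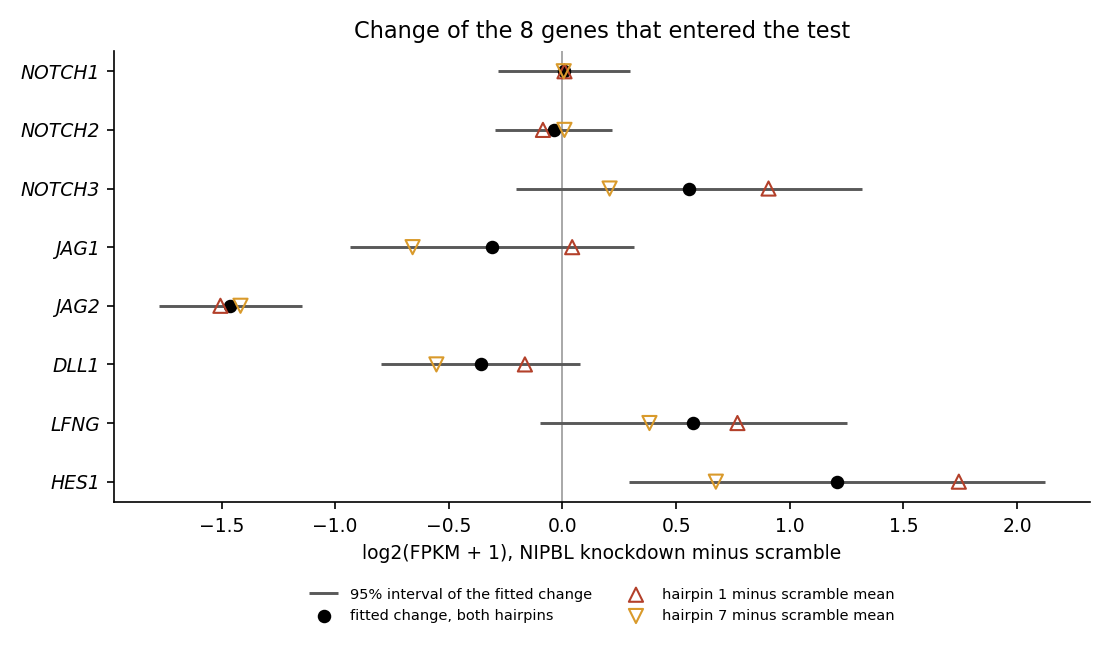
Change on the log2(FPKM + 1) scale, knockdown minus scramble (x axis), of the 8 genes that entered the test (rows). Dots and lines give the limma estimate and its unadjusted 95% interval, and triangles the difference of each hairpin from the scramble mean. The triangles of JAG2 coincide near -1.46, while those of HES1 lie at 1.74 and 0.67.

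In scramble libraries the order of levels ran from JAG1 through HES1, NOTCH2, JAG2, DLL1 and NOTCH1 to NOTCH3, HEY1 and LFNG. DLL1 overlapped with NOTCH1, and HEY1 with LFNG, and the other neighbours in that order were apart. In knockdown libraries HES1 came first and JAG1 second, with overlapping values. NOTCH2, NOTCH1 and DLL1 followed, all apart, and then JAG2, which was 4th in scramble and 6th in knockdown libraries. NOTCH3 overlapped with LFNG, and LFNG with HEY1. Of the changes in order, only that of JAG2 rests on a gene that passed the test.

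The genes whose pattern over the 4 libraries lay nearest to that of HES1 were PTHLH, ZFP36 and RARB, measured as Euclidean distance between log2(FPKM + 1) values set relative to scramble, among 11513 protein-coding genes tested. PTHLH, which encodes parathyroid hormone-related protein, was at 81.35 and 34.94 FPKM in knockdown and 23.48 and 23.36 FPKM in scramble libraries (distance 0.118). ZFP36, an RNA decay factor, was at 84.02 and 43.00 FPKM in knockdown, against 24.59 and 26.82 FPKM in scramble libraries (distance 0.124). RARB, a retinoic acid receptor, was at 5.36 and 1.75 FPKM in knockdown, against 0.79 and 0.57 FPKM in scramble libraries (distance 0.225). RARB entered the test only through its knockdown libraries, so its place among the nearest genes gives no support. None of them passed the test, with adjusted p between 0.108 and 0.158 (limma). Picked for values like those of HES1, they were bound to give a result near its own, so that outcome adds nothing. Likeness over 4 libraries separates genes poorly.

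The rest of the pathway was read from lists of 114 other genes, of which 90 entered the test. Of those, 3 rose and 0 fell at an adjusted p under 0.05 (limma), or 3.33%, near the 2.56% of all genes. Before adjustment 33 of the 90 were under 0.05, a larger share than the 26.4% of all genes. The lists were chosen with earlier results of these data known. The median log2 change was 0.0022 and 45 of 90 lay above 0. The genes that rose were CDKN1A, ID2 and ID3, all from the list of genes reported as Notch targets in other cells. ID2 and ID3 were put on that list with their rise in these libraries already known.

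Of 9 receptor processing genes 0 passed, with a median log2 change of 0.12. FURIN, which cuts the receptor during its export, was at 57.47 and 43.13 FPKM in knockdown, against 33.59 and 32.86 FPKM in scramble libraries (log2 change 0.57 ± 0.16, SE, limma, adjusted p = 0.113). ADAM10, the protease of ligand-driven cleavage, was at 60.42 and 80.22 FPKM in knockdown, against 93.59 and 92.33 FPKM in scramble libraries (log2 change -0.41 ± 0.16, SE, limma, adjusted p = 0.183). In both the groups did not overlap. The gamma-secretase subunit genes NCSTN and PSENEN had log2 changes of 0.33 and 0.44 (limma, adjusted p = 0.177 and 0.269). That of PSENEN was 0.76 with hairpin 1 and 0.13 with hairpin 7. All 4 had both hairpins on one side of scramble, as did 60.3% of genes tested.

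Of 11 glycosylation and maturation genes tested 0 passed, with a median of -0.040. SLC35C1, which carries GDP-fucose into the Golgi, was at 6.13 and 7.85 FPKM in knockdown, against 3.96 and 4.33 FPKM in scramble libraries (log2 change 0.63 ± 0.16, SE, limma, adjusted p = 0.102). ATP2A2, the calcium pump of the endoplasmic reticulum, had a log2 change of -0.40 (limma, adjusted p = 0.114) and POFUT1, which puts fucose on the receptors, of -0.21 (adjusted p = 0.565). The POFUT1 difference was 0.093 with hairpin 1 and -0.52 with hairpin 7. Of 7 ligand endocytosis genes 0 passed, with a median of 0.036. Among them were the ubiquitin ligase genes NEURL1B at 0.45 and MIB2 at -0.30, DNM2 at -0.18 and EPN3 at 0.17 (log2 change, limma, adjusted p between 0.173 and 0.416). The MIB2 groups overlapped, with a difference from scramble of -0.0085 for hairpin 1 and -0.59 for hairpin 7.

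Of 9 genes of the nuclear activation complex 0 passed, with a median of 0.013. RBPJ was at 19.10 and 24.52 FPKM in knockdown, against 25.24 and 24.72 FPKM in scramble libraries (log2 change -0.20 ± 0.14, SE, limma, adjusted p = 0.423). The lower value was that of hairpin 1, and hairpin 7 lay next to scramble. The coactivator genes MAML2, CREBBP and KAT2A had log2 changes of -0.39, 0.29 and -0.35 (limma, adjusted p = 0.121, 0.181 and 0.314). For KAT2A the difference from scramble was -0.086 with hairpin 1 and -0.61 with hairpin 7. Of 17 corepressor genes tested 0 passed, with a median of -0.032. TLE1, a corepressor that HES1 recruits, was at 18.90 and 22.73 FPKM in knockdown, against 36.60 and 36.94 FPKM in scramble libraries (log2 change -0.80 ± 0.12, SE, limma, adjusted p = 0.0509). TLE4, a relative of TLE1, and HHEX were at log2 changes of -0.41 and -0.83 (limma, adjusted p = 0.138 and 0.0919).

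Of 18 inhibitor and turnover genes tested 0 passed, with a median of -0.046. The ubiquitin ligase genes DTX3L and NEDD4L had log2 changes of 0.73 and 0.41, and DTX2 and the cyclin gene CCNC of -0.49 and -0.42 (limma, adjusted p between 0.0598 and 0.0911). Among the other receptor-like and ligand-like genes, 4 were tested and 0 passed, with a median of -0.38. DLK2 was at 1.05 and 1.86 FPKM in knockdown and 3.08 and 3.28 FPKM in scramble libraries (limma, adjusted p = 0.119). EGFL7 and DNER had log2 changes of 0.16 and -0.15, with the hairpins on opposite sides of scramble for each (limma, adjusted p = 0.854 and 0.871).

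Of 9 other HES and HEY genes 2 entered the test and 0 passed. HES4 was at 27.91 and 22.96 FPKM in knockdown, against 13.93 and 18.30 FPKM in scramble libraries (log2 change 0.63 ± 0.17, SE, limma, adjusted p = 0.113). Its groups did not overlap. HES6 was at 1.12 and 2.43 FPKM in knockdown, against 2.52 and 2.44 FPKM in scramble libraries (log2 change -0.37, limma, adjusted p = 0.439). HES2, HES3, HES5, HES7, HEY2, HEYL and HELT averaged under 1 FPKM.

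Among 14 tested genes reported as Notch targets elsewhere, 3 rose and 0 fell (limma), where 1.45% of all genes tested rose, with a median log2 change of 0.36. The share says little of the list, since ID2 and ID3, chosen with their rise known, are 2 of the 3. CDKN1A, an inhibitor of cell cycle kinases, was at 66.80 and 100.96 FPKM in knockdown, against 16.01 and 17.67 FPKM in scramble libraries (log2 change 2.22 ± 0.21, SE, limma, adjusted p = 0.0218). The log2 changes of ID3 and ID2, whose proteins block helix-loop-helix transcription factors, were 3.29 and 3.07 (limma, adjusted p = 0.00609 and 0.0217). All 3 calls were lost without scramble 1 or scramble 2, as was every other call in the series. HELLS had a log2 change of -0.51 (limma, adjusted p = 0.083). NRARP, a feedback inhibitor that Notch induces, was picked after its values were seen. It was at 9.72 FPKM with hairpin 1 and 2.57 FPKM with hairpin 7, against 2.91 and 2.87 FPKM in scramble libraries (log2 change 0.67 ± 0.53, SE, limma, adjusted p = 0.457). NRARP was high with hairpin 1 alone. CDKN1A and ID2 were higher with hairpin 7, ID2 at 12.83 FPKM with hairpin 1 and 22.56 FPKM with hairpin 7.

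**Figure D4:**
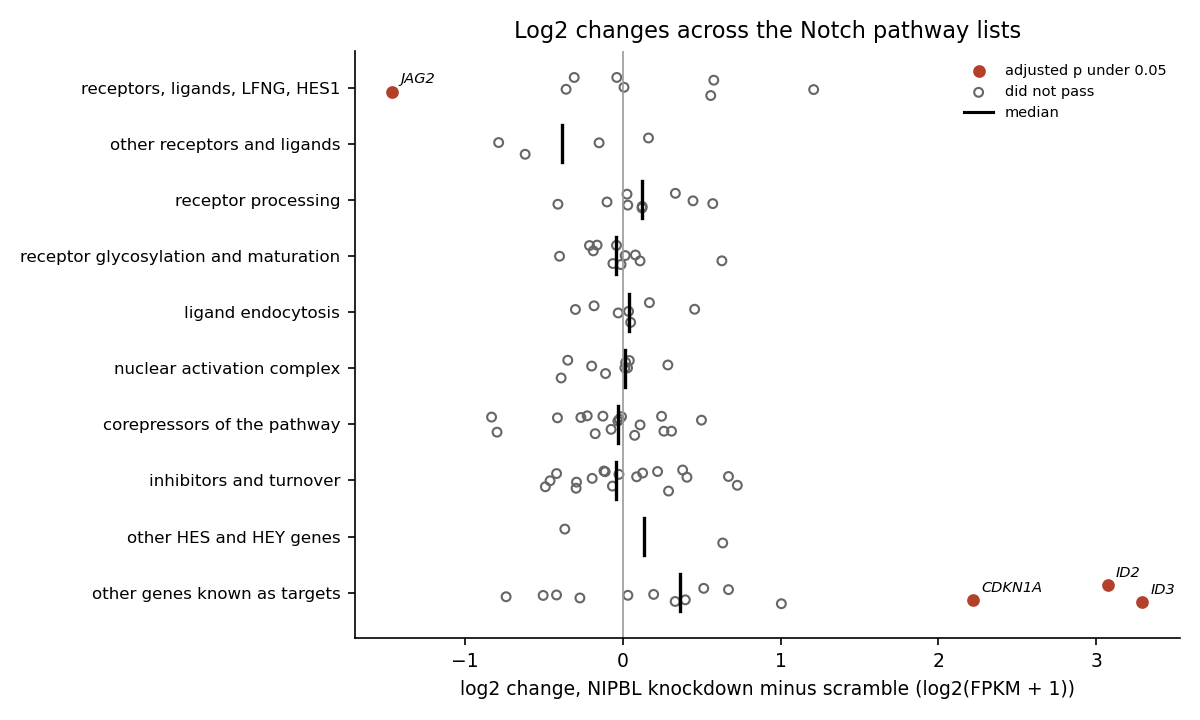
Log2 change, knockdown minus scramble (x axis), of each tested gene (points) in the Notch pathway lists (rows). Filled points passed at an adjusted p under 0.05 and bars are list medians, shown for the lists other than the top one. The filled points are JAG2 in the top row and CDKN1A, ID2 and ID3 in the bottom row.

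The members lie on different chromosomes, NOTCH1 on 9, NOTCH2 on 1, NOTCH3 on 19, JAG1 on 20, JAG2 on 14, DLL1 on 6, LFNG on 7, HES1 on 3 and HEY1 on 8 (RefSeq). The 3 nearest tested genes on each side of each tested member, by order in RefSeq and chosen after the values were seen, made 48 genes. Only the 11960 tested genes that could be placed in RefSeq were used, so a true neighbour may be skipped. Of the 48 genes 2 passed (4.17%, against 2.56% of all genes tested), with a median log2 change of 0.011. They were AHNAK2, near JAG2, and SEC22B, next to NOTCH2 (log2 change 0.63 ± 0.095, SE, limma, adjusted p = 0.0498). The 6 neighbours of HES1 had log2 changes between -0.30 for ATP13A3 and 0.094 for HRASLS, and 0 passed (limma, smallest adjusted p = 0.173). Around JAG2, 1 of 6 neighbours passed. AHNAK2, the third gene on one side and the gene of a large scaffold-like protein, was at 25.62 and 40.74 FPKM in knockdown, against 4.64 and 4.33 FPKM in scramble libraries (log2 change 2.60 ± 0.23, SE, limma, adjusted p = 0.0202). Its groups were far apart, while CDCA4 and NUDT14, next to JAG2, did not pass, at log2 changes of -0.20 and 0.59 (limma, adjusted p = 0.255 and 0.114).

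**Figure D5:**
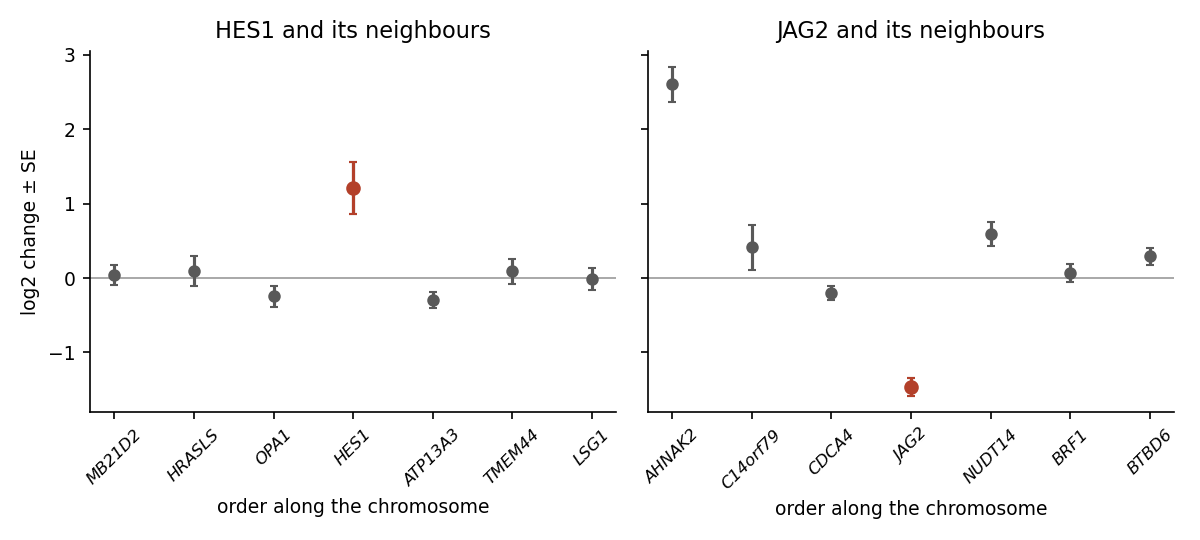
Log2 change ± SE, knockdown minus scramble (y axis), of HES1 (left) and JAG2 (right) and the 3 nearest tested genes on each side, in order along the chromosome and not to distance (x axis). HES1 stands above neighbours near 0, and JAG2, at -1.46, stands below a set that includes AHNAK2 at 2.60.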

How the data were processed

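RNA sequencing of 4 NUGC3 libraries was read from a table of FPKM per gene, made and deposited by the authors with 2 decimals. STAR and RSEM are named, without versions, in the submitters' processing notes. No source used here gives the genome build, the annotation or the strand setting. Of 344810 rows 291033 had no gene name and were left out. Those rows carried 8.47% to 9.27% of each library's FPKM. RSEM splits reads between near copies, which makes such genes uncertain.

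The 12834 genes averaging 1 FPKM or more were log2-transformed after adding 1 and fitted by limma (version 3.58.1, R 4.3.3) using eBayes and a mean trend. Degrees of freedom were 2 residual and 2.87 prior. Alternatives were other pseudocounts, filters, scalings and variance models, averaged scramble libraries and each library left out. Promoter letters were searched in Python 3.11.15 in the RefSeq windows.

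The members and lists were chosen with earlier results of these data known. The named genes were the members, NIPBL, in each list up to 4 tested genes with the smallest p and every gene that passed, and the 3 genes nearest to HES1. Genes named outside that rule are marked, or stand beside a member as another gene of its family. The value of 1 list member that the rule chose is not reported here.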

Additional observations from a re-analysis of the deposited data

How the results depend on the processing

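JAG2 passed in 10 of 14 alternatives. Members passing, higher, were 0 as reported, and lower 1. Without a filter on low values 0 members were lower, as with the scramble libraries averaged, and leaving out a library gave between 0 and 2 higher and between 0 and 3 lower. Over all genes, 186 were higher and 142 lower as reported. Without a filter 1 was higher and 0 lower (4275 at an unadjusted p under 0.05, limma), with the scramble libraries averaged 0 and 0 (975 unadjusted), and with a library left out between 0 and 2013 higher and between 0 and 2519 lower. The 0 stands for leaving out scramble 1 (1060 unadjusted) or scramble 2 (1052 unadjusted).

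Of the other Notch pathway genes, 3 higher and 0 lower passed as reported. Lower ones were 1 with a pseudocount of 0.1 and 1 with a mean of at least 5 FPKM. Higher ones were 0 without a filter and 0 with scramble averaged. Leaving out a library gave between 0 and 17 higher and between 0 and 21 lower.

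NOTCH1 turned sign to -0.036 under quantile normalization and -0.0055 under median centring. With a library left out the log2 change lay between -0.031 (without scramble 1) and 0.045 for NOTCH1, between -0.086 and 0.0087 (without NIPBL knockdown 1) for NOTCH2 and between -0.66 and 0.043 (without NIPBL knockdown 2) for JAG1. It lay between -0.55 and 0.88 for EGFL7, between -0.89 and 0.59 for DNER, between -0.52 and 0.093 for POFUT1 and between -0.12 and 1.46 for NRARP. The cause was not tested. Summed receptor FPKM was 105% of scramble with every library rescaled to the same FPKM sum, against 102% as reported, and the second JAG1 row had a log2 difference of -0.93 with a pseudocount of 0.1, against -0.10. Leaving out a library gave between 102% and 103% of scramble for receptors and between 58.4% and 91.0% for ligands, 57.4% and 88.5% for their ratio, 91.2% and 98.9% for the NOTCH2 share, 94.7% and 102% for the NOTCH1 share, 126% and 256% for the NOTCH3 share, 107% and 113% for the JAG1 share, 32.1% and 54.1% for the JAG2 share, and 96.4% and 109% for the DLL1 share. No paired analysis was possible because the labels give the groups no shared replicate numbers. The unknown depth limits what can be said of HEY1, LFNG, DLL4 and NOTCH4, all near or under 1 FPKM.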
